A study of Mus musculus with 39 samples.

Results

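Mammalian cells hold zinc in balance through storage proteins, a sensor and membrane transporters, and this account follows 8 such genes through 2 hours of reduced oxygen in mouse liver, bone marrow and spleen. They are the metallothioneins Mt1 and Mt2, the zinc sensor Mtf1, the exporters Slc30a1 and Slc30a10, and the importers Slc39a14, Slc39a8 and Slc39a10. The members were the probe sets that the platform annotation pairs with exactly 1 of these symbols, which gave 20 of 34945 named probe sets, for 8 of 18193 genes. Mt2 has 1 probe set, Mtf1 has 5, Slc39a14 has 4, and each of the other genes has 2.

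RNA was measured on 39 arrays from B6C3F1 mice, a hybrid strain, in 6 groups. Liver and spleen were each represented by 8 control and 8 reduced oxygen arrays, and marrow by 3 control and 4 treated arrays, all labelled 2 hours. Control titles carry the word vehicle without a substance, and neither the oxygen level nor the age of the mice is in the labels. All mice were killed under ketamine and acepromazine anaesthesia, controls included, and the tissue taken was marrow of the right humerus, a piece of the left lateral lobe of the liver and a slice of spleen. Nothing states that the samples of a group are separate animals, so p-values measure only how these samples vary, and that variation may be technical. Values are log2 intensities, and every ± after a group mean is an SD while every ± after a change is a standard error. In bulk tissue, fewer cells of a type and less RNA per cell cannot be told apart.

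Metallothioneins are small cysteine-rich proteins that bind zinc and copper. Free zinc activates Mtf1, a zinc finger transcription factor that binds metal response elements in the promoters of Mt1, Mt2 and Slc30a1. Slc30a1 (ZnT1) moves zinc out of the cell, and Slc30a10 (ZnT10) is chiefly a manganese exporter. Slc39a14 (ZIP14) brings zinc, manganese and iron into hepatocytes and is raised by interleukin-6 in the acute phase response. Slc39a8 (ZIP8) carries zinc and manganese inward, and Slc39a10 (ZIP10) imports zinc and is known from B cells. Glucocorticoids and inflammation are both known to raise metallothionein transcripts in liver.

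The promoter sequences of the 4 genes with a zinc response motif that bear on the results below are shown first, because metal response elements are the known route from zinc to Mt1, Mt2 and Slc30a1. Slc30a10 is shown for its matches alone. They are the 250 bases before the RefSeq transcript start (build GRCm38.p6), 5′ to 3′ on the gene's strand, and capitals mark every match to TGCACNC or TGCGCNC, the core of the metal response element, on either strand. The Mt1 window is chr8:94178839-94179088, the Mt2 window chr8:94172368-94172617, the Slc30a1 window chr1:191906531-191906780 and the Slc30a10 window chr1:185454598-185454847, all on the plus strand. Mt1 and Mt2 lie close together on chromosome 8.
Mt1: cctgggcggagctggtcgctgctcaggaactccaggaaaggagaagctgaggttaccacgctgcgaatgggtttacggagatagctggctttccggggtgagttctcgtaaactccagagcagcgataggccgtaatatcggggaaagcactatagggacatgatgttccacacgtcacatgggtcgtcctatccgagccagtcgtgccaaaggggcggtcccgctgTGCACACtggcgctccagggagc
Mt2: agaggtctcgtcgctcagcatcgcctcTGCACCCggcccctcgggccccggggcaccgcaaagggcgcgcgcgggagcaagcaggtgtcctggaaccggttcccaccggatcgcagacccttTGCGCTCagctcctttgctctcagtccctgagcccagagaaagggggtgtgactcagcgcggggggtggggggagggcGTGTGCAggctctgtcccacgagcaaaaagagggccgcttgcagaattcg
Slc30a1: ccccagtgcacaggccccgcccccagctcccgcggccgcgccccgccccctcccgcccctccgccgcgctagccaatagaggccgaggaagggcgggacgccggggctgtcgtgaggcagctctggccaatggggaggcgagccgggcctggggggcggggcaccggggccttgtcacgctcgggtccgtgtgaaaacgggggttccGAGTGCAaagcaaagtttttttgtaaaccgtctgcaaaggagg
Slc30a10: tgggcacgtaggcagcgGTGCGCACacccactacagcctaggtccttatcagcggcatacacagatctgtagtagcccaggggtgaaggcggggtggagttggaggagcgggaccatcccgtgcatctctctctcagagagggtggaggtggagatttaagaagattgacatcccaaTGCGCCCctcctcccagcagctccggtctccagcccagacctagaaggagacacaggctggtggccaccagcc

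Mt2 held 3 matches, Slc30a10 held 3, of which the pair in the first capital run overlaps on opposite strands, and Mt1 and Slc30a1 held 1 each. At least 1 match was found in 21.4% of 32841 promoter windows of this length, and at least 3 in 1.26%. When the 50 bases after the start were included, Mt2 held 4 matches, Mt1 and Slc30a10 held 3 each and Slc30a1 held 2, and as many as 4 were found in 0.518% of windows, as many as 3 in 1.97% and as many as 2 in 7.12%. The hypoxia-inducible factor cores ACGTG or GCGTG, searched on both strands, were present in the upstream windows of Mt1, Mt2, Slc30a1 and Slc30a10 and in 1 window of Slc39a8, and 38.6% of all windows held at least 1. The Slc39a8 window held 3, the most among the members, of which a pair overlaps on opposite strands. At least 3, counted in the same way, were found in 6.58% of all windows. The full glucocorticoid response element palindrome, searched without mismatches on both strands, was found in 0 of the member windows and in 3 of all 32841. Both Slc39a10 windows and the Mtf1 window held 0 matches to the metal response core, and 1 of the 2 Slc39a8 windows held 1. Such a match describes letters in a window and is not a site of binding. The table held 7 of the 8 members, and Slc39a14 was not among them.

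The tissue labels were met by their markers. Over 8 marker lists, the mean of the hepatocyte list was 14.5 in control liver, 5.21 in control marrow and 5.29 in control spleen, and the neutrophil list was at 14.6 in control marrow. Spleen control replicate 5 and spleen reduced oxygen replicate 2 carried pancreatic acinar RNA, with list means of 13.2 and 10.7 against 5.40 to 5.76 in the other 14 spleens. Leaving out both spleens gave changes of 1.55 for Mt1, 1.79 for Mt2 and -0.39 for Slc39a10 on the log2 scale, and all 3 remained called (adjusted p of Slc39a10 = 0.0152).

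In liver the metallothioneins rose the most among the members. Mt1 rose 11.0-fold and Mt2 21.1-fold after reduced oxygen, and Slc39a14 and Slc30a10 rose as well, so that 4 of 8 members were higher and 0 were lower. The background in this tissue was 11.1% of 12735 genes past an adjusted p of 0.05 (limma, Benjamini-Hochberg), with 3.88% higher and 7.22% lower. The median change of the 8 members was 0.28, beside -0.034 over all genes tested. The members were chosen with results of these data known, so the count describes them and supports nothing further.

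Control livers held Mt1 (probe set 1422557_s_at) between 9.40 and 12.6 with a median of 10.2, and reduced oxygen livers held it between 13.7 and 14.7 with a median of 14.3. The groups did not overlap, and the control arrays were spread far more widely than the treated ones. The mean went from 10.83 ± 1.29 (n = 8) to 14.28 ± 0.38 (n = 8), a change of 3.45 ± 0.41 (adjusted p = 9.02e-06). The suffix of this probe set marks probes that can match more than 1 transcript, while the other Mt1 probe set, 1451612_at, has no such mark. By that probe set, Mt1 went from 6.12 ± 0.60 to 9.28 ± 0.33, a change of 3.16 ± 0.21 (adjusted p = 8.62e-09 over all named probe sets).

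Mt2 (1428942_at) lay between 7.07 and 11.3 in control livers, median 8.40, and between 12.4 and 13.9 after reduced oxygen, median 13.6. Again every treated liver was above every control. The mean rose from 9.05 ± 1.58 to 13.45 ± 0.51, by 4.40 ± 0.50 (adjusted p = 6.33e-06). Genes whose liver groups did not overlap made up 2.84% of those tested.

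The liver controls differed between replicates 1 to 4 and replicates 5 to 8. Mt2 was at 8.37, 10.03, 11.28 and 11.20 in control replicates 1 to 4 and at 7.92, 8.43, 7.07 and 8.07 in control replicates 5 to 8. The controls of the second set were therefore at or below 8.43, and 3 of the first set were above 10. The change within replicates 1 to 4 was 2.45 for Mt1 and 3.18 for Mt2, and within replicates 5 to 8 it was 4.45 and 5.62. Both genes passed the test in each set, and the difference between sets was not tested. What distinguishes the sets is not stated in the labels.

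**Figure D1:**
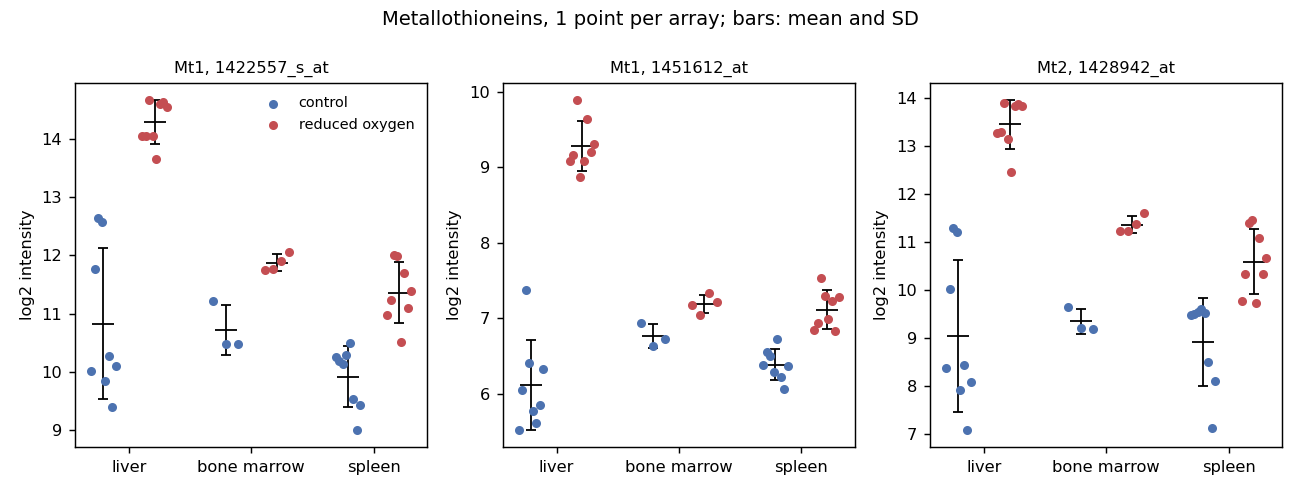
Log2 intensity of both Mt1 probe sets and the Mt2 probe set in each array (points), by tissue and group, with the group mean and SD (bars). Every reduced oxygen array lies above every control array of its tissue in each panel, and the liver controls of Mt2 reach from 7.07 to 11.3.

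Slc39a14, the importer of the acute phase liver, was the third member to rise there. By its brightest probe set (1427035_at) the controls lay between 9.67 and 10.32, median 9.85, and the treated livers between 10.21 and 11.77, median 11.24. Reduced oxygen replicate 5, at 10.21, was the lone treated liver inside the control range. The mean rose from 9.92 ± 0.25 to 11.10 ± 0.47, a change of 1.18 ± 0.17 or 2.27-fold (adjusted p = 7.24e-05). All 4 probe sets of Slc39a14 were called higher in liver, with changes from 1.10 to 1.18.

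Lipocalin 2 (Lcn2), an acute phase transcript of liver, varied strongly between the treated livers and is given beside Slc39a14. Lcn2 was at 7.15, 7.08, 13.8, 11.8, 7.07, 13.8, 13.0 and 13.3 in reduced oxygen replicates 1 to 8, and between 6.03 and 9.91 in controls. Slc39a14 in the same livers was at 10.85, 10.79, 11.77, 11.31, 10.21, 11.38, 11.27 and 11.22. The 3 livers near 7 in Lcn2 were the 3 lowest treated livers in Slc39a14 by each of its 4 probe sets. By 1427035_at 2 of them stood above every control, as did 2 by 1438490_at, 1 by 1425649_at and 0 by 1457770_at. Mt2 was at 13.3, 13.3, 13.9, 13.1, 12.4, 13.8, 13.9 and 13.8, so the livers low in Lcn2 had Mt2 well above the control range. Treated replicate 5 was lowest in both genes, while replicate 4, at 11.8 in Lcn2, had Mt2 below replicates 1 and 2. Control replicates 3 and 4 were highest in both, with Lcn2 at 8.57 and 9.91 and Mt2 at 11.28 and 11.20. Control replicate 1, next in Lcn2 at 7.95, had Mt2 of 8.37, below the 10.03 of control replicate 2. Neutrophil markers had a mean of 4.90 to 5.25 in control livers and 4.93 to 6.70 in treated livers, with 3 of 6 tested markers higher. The part of these differences in the Slc39a14 or Mt2 change was not tested.

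**Figure D2:**
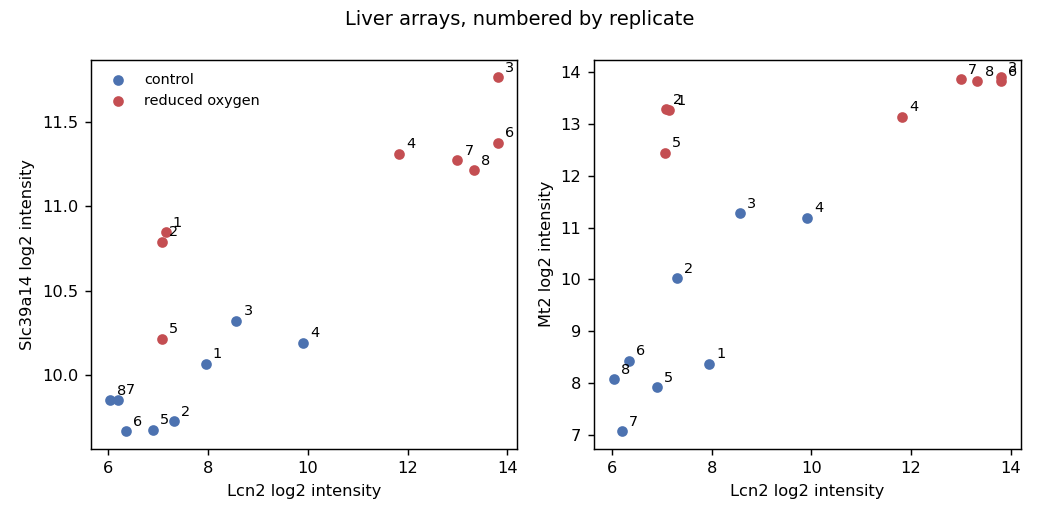
Slc39a14 (left) and Mt2 (right) against Lcn2 in the 16 liver arrays, all as log2 intensity, numbered by replicate and coloured by group. Reduced oxygen replicates 1, 2 and 5 sit near an Lcn2 value of 7 with Mt2 between 12.4 and 13.3, above every control.

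Slc30a10, the manganese exporter, was called higher in liver by a narrow margin. Controls lay between 8.27 and 9.35 and treated livers between 8.92 and 9.83, so the groups overlapped. The change was 0.50 ± 0.16, from 8.83 ± 0.33 to 9.32 ± 0.36 (adjusted p = 0.0446). The call was lost when any of 10 of the 16 livers was left out, with an adjusted p of up to 0.0931, and the second probe set (1438751_at) gave a change of 0.28 with an adjusted p of 0.271. In the fit of single probe sets, with more tests to adjust for, the first probe set had an adjusted p of 0.0562.

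Slc30a1, the zinc exporter under Mtf1 control, gave different answers by its 2 probe sets over all liver arrays. The brighter, 1436164_at, lay at 8.78 to 9.82 in controls and 8.77 to 10.01 after treatment, a change of 0.053 (adjusted p = 0.902). Its control mean was 9.53 in replicates 1 to 4 and 8.88 in replicates 5 to 8. Within replicates 1 to 4 it changed by -0.21 (adjusted p = 0.664), and within replicates 5 to 8 by 0.32 (adjusted p = 0.0526). The dimmer, 1422786_at, lay at 6.72 to 7.11 in controls and 7.15 to 7.76 after treatment, with no overlap. It rose by 0.44 ± 0.08, from 6.94 ± 0.12 to 7.38 ± 0.20 (adjusted p = 0.00181). The change of the dimmer was 0.45 within replicates 1 to 4 (adjusted p = 0.114) and 0.43 within replicates 5 to 8 (adjusted p = 0.00913). Over all named probe sets 7.5% were called in liver and 3.21% were higher, and among the 20 member probe sets 9 were higher and 0 were lower.

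The sensor and the remaining importers did not pass the test in liver by their brightest probe sets. Mtf1 (1418333_at) had a change of -0.35 ± 0.13 (adjusted p = 0.0846), and this passed the test with the replicate number as a block (adjusted p = 0.0254), with the set of replicates as a term (0.00625) and after quantile normalization (0.0409). Another Mtf1 probe set, 1429170_a_at, went the other way, by 0.31 ± 0.09 (adjusted p = 0.0457), a call lost when any of 12 of the 16 livers was left out. Slc39a8 changed by -0.13 (adjusted p = 0.530) and Slc39a10 by 0.064 (adjusted p = 0.885). Slc39a10 changed by 0.50 within replicates 1 to 4 and by -0.37 within replicates 5 to 8, with neither past the threshold.

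In bone marrow both metallothioneins rose and no other member was called at the gene level. Of 8 members 2 were called higher and 0 lower, beside 7.69% of 12735 genes called, 2.76% higher and 4.92% lower. The median change of the members was 0.18, beside -0.01 over all genes tested. Control marrows held Mt1 at 11.22, 10.47 and 10.47 and treated marrows at 11.75, 11.77, 11.90 and 12.06. The treated values all exceeded the highest control, and the mean rose 2.22-fold, by 1.15 ± 0.18 (adjusted p = 0.00860). Mt2 was at 9.65, 9.21 and 9.18 in controls and at 11.23, 11.22, 11.37 and 11.61 after treatment. The gap between the groups was wider for Mt2 than for Mt1, and its mean rose 4.02-fold, by 2.01 ± 0.14 (adjusted p = 0.000252). In marrow 20.5% of tested genes had groups that did not overlap, so separation alone says little there.

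Slc30a1 by 1422786_at was at 6.85, 6.59 and 6.82 in control marrows and at 7.20, 7.20, 7.16 and 7.19 in treated ones. All treated marrows were higher, and the change was 0.43 ± 0.07 (adjusted p = 0.0177), although leaving out any of 3 of the 7 arrays ended the call, with an adjusted p of up to 0.0690. The brighter Slc30a1 probe set changed by 0.25 ± 0.07 (adjusted p = 0.0726). Over named probe sets 3.83% were called in marrow and 1.73% were higher, and 4 of 20 member probe sets were higher and 0 lower. The second Mt1 probe set (1451612_at) changed by 0.42 ± 0.09 (adjusted p = 0.0478), and the call was lost when any of 6 of the 7 arrays was left out.

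The remaining members missed the threshold in marrow. Slc30a10 changed by 0.41 ± 0.11 (adjusted p = 0.0651) with groups that did not overlap, from 5.52 to 5.97 in controls and from 6.01 to 6.28 after treatment. Mtf1 (1428979_at) changed by -0.38 ± 0.10 (adjusted p = 0.0549). With the replicate number as a block its change was -0.43 (adjusted p = 0.0481). That fit also left out reduced oxygen replicate 4, which has no control of the same number. The replicate numbers in marrow did not meet the rule used for pairing, given with the processing below. Slc39a14, whose brightest probe set in marrow was 1425649_at, changed by 0.078 (adjusted p = 0.777), Slc39a8 by 0.11 (adjusted p = 0.508) and Slc39a10 by -0.0088 (adjusted p = 0.954).

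In spleen the metallothioneins rose and the importer Slc39a10 fell. Of 7 members tested, 2 were called higher and 1 lower, beside 19.4% of all genes called, 6.83% higher and 12.6% lower, and Slc30a10 was too dim to be tested at the gene level. The median change of the 7 was 0.18, beside -0.0083 over all genes tested. Mt1 lay between 8.996 and 10.499 in controls, median 10.2, and between 10.504 and 12.01 after treatment, median 11.3. The groups did not overlap, by a narrow margin (4.69% of genes had no overlap in spleen), and the mean rose 2.73-fold, by 1.45 ± 0.24 (adjusted p = 0.000346). The second Mt1 probe set rose by 0.73 ± 0.11 (adjusted p = 0.000151).

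Mt2 lay between 7.13 and 9.60 in control spleens, median 9.48, and between 9.72 and 11.5 after treatment, median 10.5. Its mean rose 3.18-fold, by 1.67 ± 0.37 (adjusted p = 0.00360). Control replicates 1 to 5 sat between 9.48 and 9.60, and control replicates 6, 7 and 8 were at 8.50, 7.13 and 8.10. Within replicates 1 to 4 the change was 1.20 with an adjusted p of 0.0958, and within replicates 5 to 8 it was 2.13 (adjusted p = 0.00932). Treated replicates 3, 4 and 6 had the highest Mt2, at 11.4, 11.5 and 11.1, and they also had the highest neutrophil marker means, 12.6, 12.3 and 12.5. Over all spleens those means ran from 9.59 to 11.1 in controls and from 9.11 to 12.6 after treatment, with 0 of 8 markers called by limma and 3 at an unadjusted p under 0.05. Control replicate 6 had the highest neutrophil mean of the controls, 11.1, with Mt2 at 8.50. Control replicates 1, 4 and 7 had neutrophil means of 9.59, 9.64 and 9.66, with Mt2 at 9.48, 9.60 and 7.13. Erythroid marker means were 9.70, 8.52 and 9.07 in control replicates 6, 7 and 8, the controls low in Mt2, and 9.82 to 11.1 in control replicates 1 to 5. In treated spleens they ran from 9.70 to 10.9, with 0 of 4 tested markers called by limma and 0 at an unadjusted p under 0.05. Treated replicate 4 was highest in both the erythroid mean and Mt2. Treated replicates 5 and 6 were each at 10.1 in the erythroid mean, with Mt2 at 9.72 and 11.1. The part of either marker list in the Mt2 change was not tested.

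Slc39a10 (1433751_at) lay between 8.51 and 8.94 in control spleens, median 8.75, and between 8.06 and 8.74 after treatment, median 8.34. The ranges overlapped, and the mean fell by 0.40 on the log2 scale, a change of -0.40 ± 0.10 (adjusted p = 0.00747), or 1.32-fold. The fall was -0.65 within replicates 5 to 8 (adjusted p = 0.00151), and the change was -0.14 within replicates 1 to 4 (adjusted p = 0.575). The second probe set (1439041_at) changed by -0.28 (adjusted p = 0.193). B cell markers, the cells this importer is known from, had means of 11.1 to 11.8 in control spleens and 9.66 to 11.5 in treated spleens, with 2 of 5 called lower. The value of 9.66 was treated replicate 4 alone, and the other treated spleens lay between 11.0 and 11.5. Slc39a10 in treated replicate 4 was at 8.38. This was above treated replicates 5 to 8, at 8.06 to 8.30, and below treated replicates 1 to 3, at 8.45 to 8.74. The part of the B cell markers in the Slc39a10 change was not tested.

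Slc30a1 rose in spleen by 1422786_at and did not pass the test by 1436164_at. The former lay between 6.17 and 6.70 in controls and between 6.85 and 7.28 after treatment, with no overlap, and rose by 0.58 ± 0.08 (adjusted p = 4.60e-05). The latter changed by 0.23 ± 0.11 (adjusted p = 0.141). Groups without overlap made up 3.83% of probe sets in spleen, 14.7% in marrow and 1.99% in liver, and 1422786_at was among them in all 3 tissues.

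The Mtf1 probe sets also disagreed in spleen. Probe set 1429170_a_at lay between 6.55 and 7.06 in controls and between 7.13 and 7.62 after treatment, and rose by 0.63 ± 0.09 (adjusted p = 0.000136). The brightest, 1428979_at, changed by -0.21 ± 0.08 (adjusted p = 0.0858), and leaving out reduced oxygen replicate 4 made this a call (-0.27, adjusted p = 0.00695). No single direction for Mtf1 can be given from these probe sets. In spleen 14.6% of named probe sets were called and 6.02% were higher, and of the 20 member probe sets 5 were higher and 1 was lower.

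Slc39a14 and Slc39a8 did not pass the test in spleen. Slc39a14 changed by -0.061 (adjusted p = 0.768), with controls from 6.50 to 7.06 and treated spleens from 6.32 to 7.12. Slc39a8 changed by 0.18 (adjusted p = 0.670), with the widest treated range among the importers, from 7.68 to 9.60. Slc30a10, tested as a single probe set, changed by 0.36 ± 0.15 (adjusted p = 0.128).

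**Figure D3:**
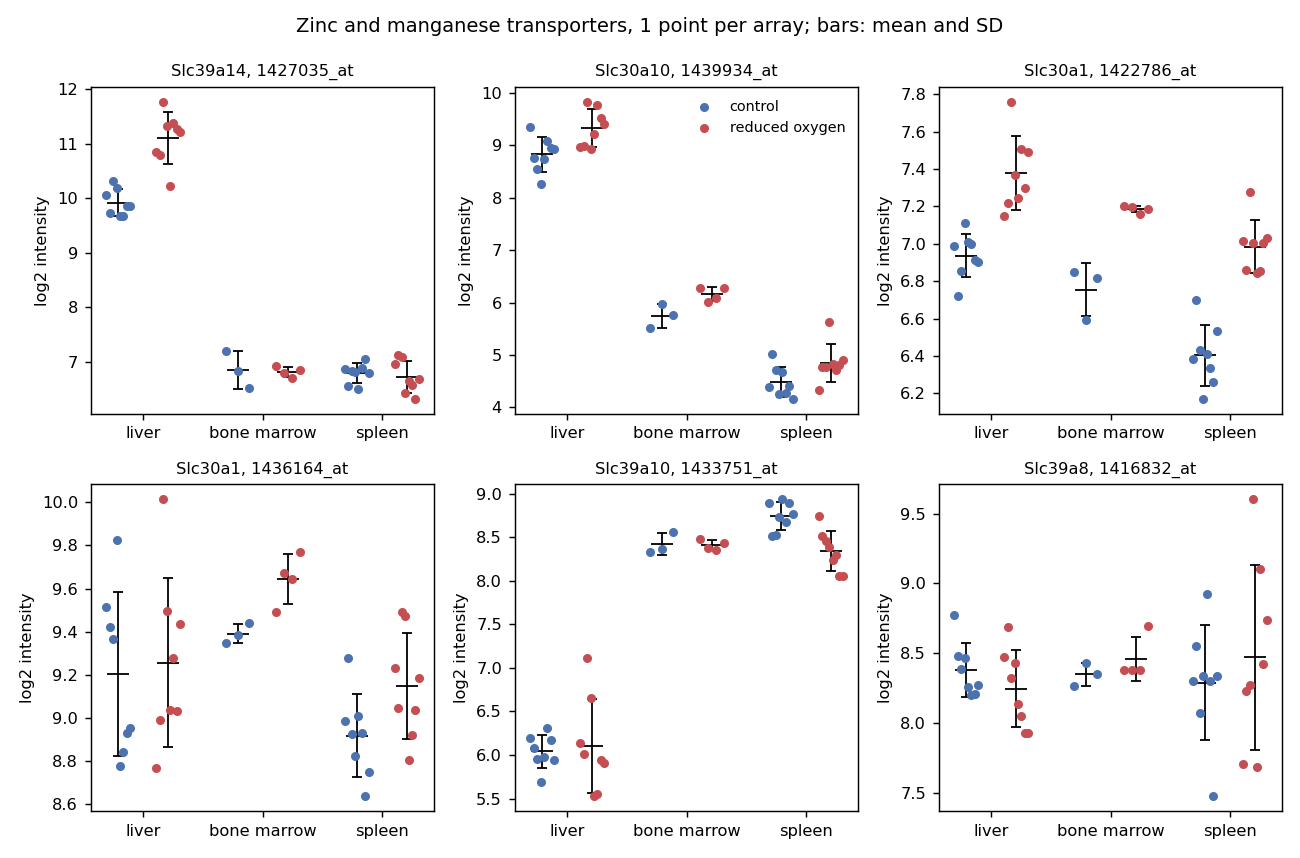
Log2 intensity of the transporters in each array (points), by tissue and group, with group mean and SD (bars). By the probe set shown, Slc39a14 separates the groups in liver save for 1 treated array at 10.21, and Slc39a10 is lower after reduced oxygen in spleen, from a mean of 8.74 to 8.34.

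**Figure D4:**
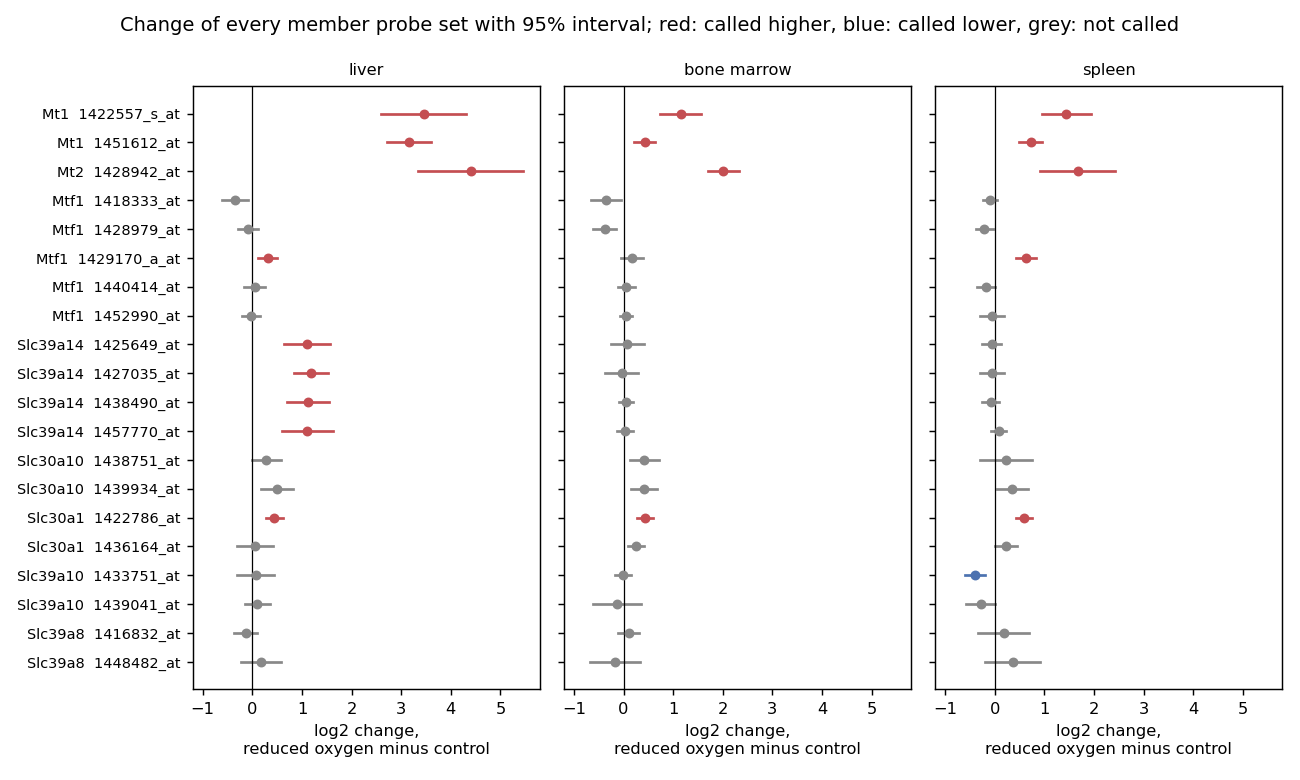
Log2 change (reduced oxygen minus control, with 95% interval) of each of the 20 member probe sets in each tissue. The Mt1, Mt2 and Slc30a1 1422786_at changes lie above 0 in all 3 tissues, the 4 Slc39a14 probe sets lie above 0 in liver, and the Mtf1 probe sets lie on both sides.

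The size of the response was compared between tissues by interaction contrasts in 1 fit of all 39 arrays, and the contrasts with liver share its arrays. That fit gives each gene a single residual variance over all tissues, so the spread of the liver controls enters every contrast. Mt1, Mt2 and Slc39a14 responded more strongly in liver than in spleen, with 3 of 7 members called beside 9.84% of all genes. The difference was 2.01 ± 0.47 for Mt1 (adjusted p = 0.00408), 2.73 ± 0.61 for Mt2 (adjusted p = 0.00265) and 1.24 ± 0.21 for Slc39a14 (adjusted p = 4.99e-05). By its second probe set, the Mt1 difference was 2.43 (adjusted p = 1.54e-09), in a fit where 7.59% of named probe sets were called.

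Between liver and marrow 2 of 8 members were called, beside 2.76% of all genes. The Mt1 response exceeded that of marrow by 2.31 ± 0.61 (adjusted p = 0.0255), a call lost without marrow control replicate 1 or marrow reduced oxygen replicate 2 or 3, with an adjusted p of up to 0.139. The second Mt1 probe set gave 2.74 (adjusted p = 1.08e-07), where 1.94% of named probe sets were called. The Slc39a14 response exceeded it by 1.22 ± 0.27 (adjusted p = 0.00476; 0.0539 without marrow control replicate 1). Of the 4 Slc39a14 probe sets 2 were called for this difference in the fit of single probe sets. Probe set 1425649_at, the brightest in marrow, gave 1.02 (adjusted p = 0.0900) and 1457770_at gave 1.08 (adjusted p = 0.0823). The Mt2 difference was 2.39 ± 0.79 and missed the threshold (adjusted p = 0.0967), which it passed without liver control replicate 3 or 4 (0.0305 and 0.0327). This standard error rests on the shared variance. With each tissue fitted alone, the standard error of the Mt2 change was 0.50 in liver and 0.14 in marrow.

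Between spleen and marrow 0 of 7 members were called by limma, beside 0.272% of all genes, and 0 had an unadjusted p under 0.05. The interval of the difference ran from -0.94 to 1.54 for Mt1 and from -1.95 to 1.27 for Mt2, so equal responses are not shown. These widths include the spread of the liver arrays through the shared variance. For Mt2 the standard error was 0.80 here, beside 0.37 in spleen and 0.14 in marrow fitted alone. The Slc30a1 response by 1422786_at differed between liver and spleen by -0.14, with an interval from -0.36 to 0.08, and between liver and marrow by 0.0089, from -0.27 to 0.29.

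Control levels of the same probe set also differed by tissue and are given here as a description alone. Judging by the array medians, each tissue appears to have been normalized on its own. Those medians were 5.21 to 5.34 in liver, 6.22 to 6.29 in marrow and 6.16 to 6.20 in spleen. Slc39a14 (1427035_at) was at 9.92 ± 0.25 in liver, 6.85 ± 0.34 in marrow and 6.79 ± 0.18 in spleen, with marrow and spleen inside each other's spread. Slc30a10 (1439934_at) was at 8.83 ± 0.33 in liver, 5.75 ± 0.23 in marrow and 4.49 ± 0.29 in spleen. Slc39a10 (1433751_at) ran the other way, at 6.04 ± 0.19 in liver, 8.42 ± 0.12 in marrow and 8.74 ± 0.16 in spleen. Slc39a8 (1416832_at) was at 8.38 ± 0.19, 8.35 ± 0.08 and 8.29 ± 0.41. Since the array medians differ, these near values are not equal levels: within its tissue the probe set lay above 77.6% of gene means in liver, 63.9% in marrow and 66.3% in spleen.

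Of the other genes of the zinc families, 0 passed the test in liver, 0 in marrow and 2 in spleen. The list held 21 further metallothionein, ZnT (Slc30a) and ZIP (Slc39a) genes, of which 16 were tested in each tissue. In liver 0 were called by limma, beside 11.1% of all genes, and 0 had an unadjusted p under 0.05, with a median change of 0.042 and a range from -0.14 to 0.094. In marrow 0 were called, beside 7.69% of all genes, and 3 had an unadjusted p under 0.05, which were Slc30a5 (-0.25), Slc30a6 (-0.29) and Slc30a7 (-0.17), transporters that load zinc into the secretory pathway. The largest change there was 0.41 for Slc39a4 (adjusted p = 0.245), the zinc importer of the intestine, named after its value was seen. In spleen, where 19.4% of all genes were called, Slc39a11, a ZIP family gene, rose by 0.20 (adjusted p = 0.0229) and Slc39a9, of the same family, fell by 0.18 (adjusted p = 0.0437), with a median over the list of -0.053.

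**Figure D5:**
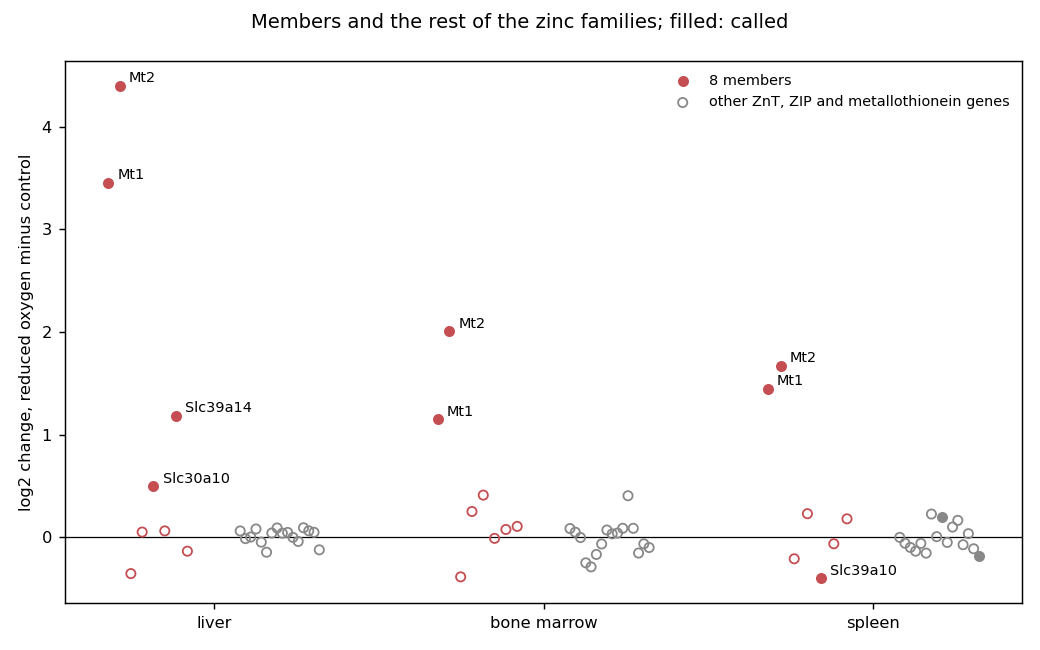
Log2 change of the 8 members and of the 16 tested other zinc family genes by tissue (filled points passed the test). The metallothioneins reach 4.40 in liver, while the other family genes lie between -0.29 and 0.41 in every tissue.

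Genes whose 3 tissue changes lay nearest to those of the members were sought among 11074 genes tested in all tissues, by the root mean square difference of the log2 changes. Nearest to Mt1 were Cdkn1a, the cell cycle inhibitor p21, at 0.36, with changes of 2.92 in liver, 0.87 in marrow and 1.25 in spleen, then Ankrd37 at 0.49 and Lcn2 at 0.69. Lcn2 changed by 3.48 in liver, -0.047 in marrow and 1.33 in spleen, so it did not share the Mt1 rise in marrow. Nearest to Mt2 were Mt1 at 0.75, the phosphatase gene Dusp1 at 0.92 and Ankrd37 at 1.01. Nearest to Slc39a14 were Arrdc2 at 0.067, with changes of 1.22, 0.0089 and 0.022, then Slc41a2, a magnesium transporter, and C9orf72, both at 0.097. The measure rests on 3 tissues and describes likeness of change alone.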

How the data were processed

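The authors deposited linear probe set intensity values for 39 arrays, and the submitters' processing notes name RMA (background correction, normalization and probe summary) and limma, without versions. Genome build and annotation are not given in the sources used here. Intensities (5.78 to 43830) were converted to log2 with no offset. Of 45101 probe sets, 64 controls were left out, and the platform annotation named 34945 probe sets by 1 symbol, 932 by several and 9160 by none. A gene was represented by its brightest probe set in the tissue, and genes under the 30th percentile of gene means were left out.

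Each tissue was fitted alone with limma 3.58.1 (lmFit, eBayes, two-sided) in R 4.3.3 with version 1.17.8 of data.table, p adjusted by Benjamini-Hochberg over 12735 genes and called under 0.05. Single probe sets were fitted in the same way over all 34945. Interactions used 1 fit of 39 arrays. The code was tested on simulated data. The number of arrays limits the precision.

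Every member was named and all its probe sets were tested, with those named that the results turn on, and other zinc family genes were named where called or singled out after their values were seen. The members and lists were chosen with earlier results of these data known. Replicate numbers were checked for pairing through the correlation of deviations from group means over genes. In liver every same-number correlation was positive (0.166 to 0.535), which by the rule used pairs those arrays through the numbers in the labels, although the mean of 0.303 was close to the 0.262 of other numbers in the same set. Marrow and spleen did not meet the rule.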

Additional observations from a re-analysis of the deposited data

Results flagged for a closer look

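In 55 groups of 4 to 8 arrays, 3 members had an array whose gap to the nearest other was large for the range of the group, where chance alone flags about 1 group in 20. Slc39a8 (1416832_at) in marrow was at 8.69 in reduced oxygen replicate 4, while the other 3 arrays held the identical value of 8.38. With tied values the gap fills the whole range, so the chance rate does not apply to that group. Slc30a10 (1439934_at) in spleen was at 5.63 in reduced oxygen replicate 4 and between 4.34 and 4.90 in the others. Slc30a1 (1422786_at) in spleen was at 7.28 in reduced oxygen replicate 3 and between 6.85 and 7.03 in the others.

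The response differed between tissues by an interaction test for 3 members. Against spleen, the liver response was larger by 2.01 for Mt1, by 2.73 for Mt2 and by 1.24 for Slc39a14 on the log2 scale. Against marrow, it was larger by 2.31 for Mt1 and by 1.22 for Slc39a14.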

How the results depend on the processing

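By their brightest probe sets Mt1 in all 3 tissues, Mt2 in liver and marrow and Slc39a14 in liver passed the test under every alternative run. The count of members called was 4 in marrow with the mean of all probe sets of a gene (Slc30a1 and Slc30a10 joined) and 1 in spleen within replicates 1 to 4. With 1 array left out, it ran from 3 to 4 in liver, 2 to 3 in marrow and 3 to 4 in spleen, and the count of liver-marrow differences from 0 to 3. Fits of second probe sets (Mt1 1451612_at, Slc30a1 1422786_at, Mtf1 1429170_a_at) and the fit without 2 spleens were chosen after seeing the data.

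Reversals concerned changes that had not passed the test, and the cause was not tested. By other probe sets, Mtf1 changed by 0.31 and 0.048 in liver, 0.18, 0.060 and 0.056 in marrow and 0.63 in spleen, Slc39a8 by 0.17 in liver and -0.17 in marrow, and Slc39a14 by -0.035 in marrow and 0.079 in spleen. With the mean of probe sets, Slc39a8 was at 0.019 in liver and -0.032 in marrow and Mtf1 at 0.020 in spleen. The differences were then 0.067 (Mtf1), -0.028 (Slc30a10) and 0.051 (Slc39a8) for liver minus marrow and 0.063 (Slc30a1) for spleen minus marrow. Within replicates 1 to 4, Slc30a1 was at -0.21 in liver and Slc39a14 at 0.13 in spleen, and within 5 to 8 Slc39a10 was at -0.37 in liver. Quantile normalization gave 0.022 for Slc39a10 in marrow, and centring on the median 0.011 for the liver-marrow difference of Mtf1. With 1 array left out, changes crossed 0 for Slc30a1 (-0.056 to 0.14) and Slc39a10 (-0.081 to 0.15) in liver. In marrow they did so for Mtf1 (-0.46 to 0.23), Slc39a10 (-0.052 to 0.062) and Slc39a14 (-0.20 to 0.16). For Mtf1 another probe set became the brightest without control 1 or 3. For Slc39a14 probe set 1427035_at became the brightest in each fit with a reversed sign. Differences of liver minus marrow also crossed 0 for Mtf1 (-0.055 to 0.13), Slc30a10 (-0.024 to 0.20) and Slc39a10 (-0.072 to 0.16). Those of spleen minus marrow did so for Slc30a1 (-0.072 to 0.030), Slc39a14 (-0.20 to 0.14) and Slc39a8 (-0.088 to 0.19).

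Blocking on the replicate number gave 2385 called genes in liver against 1413 without it, and Mtf1 was called in liver (-0.35) and marrow (-0.43). In marrow the replicate numbers did not meet the pairing rule. The block fit there also left out reduced oxygen replicate 4, which has no control of the same number. The second Mt1 probe set lost its marrow call in that fit (0.42, adjusted p = 0.0616). Without that array and with no block, its change was also 0.42 and not called (adjusted p = 0.0896). No other member changed its call under the block. Of 8 liver pairs, 2 arrays correlated best with their own number. With the set of replicates as a term 2668 liver genes were called. Within replicates 1 to 4 the count was 781 in liver and 482 in spleen (2469 with all spleens). Within replicates 5 to 8 it was 1894 in liver and 3293 in spleen, above the counts with all arrays of each tissue. Marrow counts fell from 979 to between 408 and 650 without control replicate 2 or 3 or reduced oxygen replicate 2 or 3.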
